A study of Homo sapiens with 12 samples.

Results

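The response of MCF10AT cells to prolactin (PRL) was measured in cells that carried both the long prolactin receptor and the intermediate receptor with its I-tail in place (hPRLrL/hPRLrI). The comparison rested on 6 of the 12 libraries of the study, chosen by their genotype and treatment labels: 3 from untreated cells and 3 from cells given PRL. Each title run of the study (titles 1 to 4, 5 to 8 and 9 to 12) held 1 library of each of the 4 groups, and the title run was a block in the fit, so that every treated library was set against the untreated library of its own run. What a title run stands for is not given in the labels.

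MCF10AT is a Ras-transformed derivative of MCF10A, a non-malignant human breast epithelial line. All cells of the study expressed a human PRL receptor pair, spent 24 h in serum-free medium with albumin and were then either left untreated or exposed for 2 h to 250 ng/ml of PRL before polyA RNA was taken for sequencing. The remaining 6 libraries came from cells whose intermediate receptor lacked the I-tail, 3 untreated and 3 with PRL. They helped to estimate the run terms and the spread, and served as a second PRL comparison in libraries that the intact contrast did not use. The labels speak of biological replicates without naming separate cultures or days, and they do not say how the receptors were introduced or whether each line is 1 clone, so p-values here measure the spread between these libraries.

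The PRL receptor is a cytokine receptor without a kinase of its own. Ligand binding activates the associated kinase JAK2, which phosphorylates STAT5, and STAT5 enters the nucleus and binds DNA at sites of the form TTCNNNGAA. In the mammary gland this pathway drives alveolar growth and milk gene expression, and it also turns on its own inhibitors, the SOCS-family proteins. The intermediate receptor arises by alternative splicing and ends in a short tail of its own, the I-tail.

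The 6 libraries held 37086652 to 57324865 counts, within a range of 36120808 to 57324865 over all 12. Untreated and PRL library 2 had the fewest detected genes of the 6, 19905 and 19073, against 21761 to 25200 in the others. All 11 basal epithelial markers were detected, with a summed level of 3750 to 11700 CPM in untreated and 4110 to 15000 CPM in PRL libraries (CPM are counts scaled to a common library size after TMM). Luminal markers summed to 1280 to 2450 and 1510 to 3430 CPM, with PGR and ELF5 at 0. KRT8 and KRT18, also general epithelial markers, led this sum with means of 1340 and 354 CPM over the 12 libraries. MUC1 had a mean of 158 CPM and ESR1 of 0.163 CPM. Summed levels in untreated and PRL libraries were 424 to 513 and 427 to 478 CPM for fibroblast markers (led by DCN and COL1A1), 13.6 to 21 and 21.3 to 22.5 CPM for leukocyte markers (led by CD14, with MS4A1 at 0), 1.61 to 2.5 and 1.22 to 3.3 CPM for endothelial markers, and 3.14 to 9.04 and 1.26 to 7.45 CPM for adipocyte markers (LEP and ADIPOQ at 0). No marker of the 7 lists passed the test. All samples were MCF10AT cells, so these sums are levels in that line and were not read as numbers of other cell types. In bulk RNA, fewer cells expressing a gene and less RNA per cell cannot be told apart.

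With the block, 62 of 17677 tested genes (0.351%) changed with PRL: 58 rose (0.328% of the genes tested) and 4 fell (0.0226%), namely BCL6, TOB1, PDE4D and DDIT4. The genes that rose included feedback inhibitors of cytokine receptors, the AP-1 subunits JUN and JUNB, inhibitors of SMAD signalling, nuclear receptors and transcriptional corepressors. A rise of at least 2-fold was reached by 27 genes and a fall of that size by 2, and 60 of the 62 genes code for protein. All 62 moved the same way in each of the 3 title runs. Over all tested genes, 17.3% were higher with PRL in every run and 16.9% were lower. The fit with the block favours genes whose runs agree, so this comparison is not separate support.

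The calls were made by edgeR's quasi-likelihood test with Benjamini-Hochberg adjustment at 0.05, and all adjusted p-values of single genes here come from it. Without the block, 3 genes passed (0.017%), CISH, JUN and SOWAHC, all of them among the 62. The median standard error of a log2 fold change was 0.206 with the block and 0.319 without it. For 49 of the 62 genes the 3 PRL libraries lay entirely on one side of the 3 untreated ones, 46 above and 3 below, and 13 overlapped between the groups while differing within each run. Over all tested genes, groups that did not overlap were found for 2.61% with PRL higher and 2.88% with PRL lower. Calling genes from these same libraries favours such separation. At an unadjusted p under 0.05 there were 1457 genes (8.24%). The last genes inside the threshold were HRH1 (adjusted p = 0.0461), TRIB3 and TNFAIP8 (both 0.047). The first outside it were TFAP2C (log2 fold change 0.53, adjusted p = 0.0508), TWIST1 (-0.60, 0.0582), LFNG (0.61, 0.0593) and TLNRD1 (0.59, 0.0593).

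**Figure D1:**
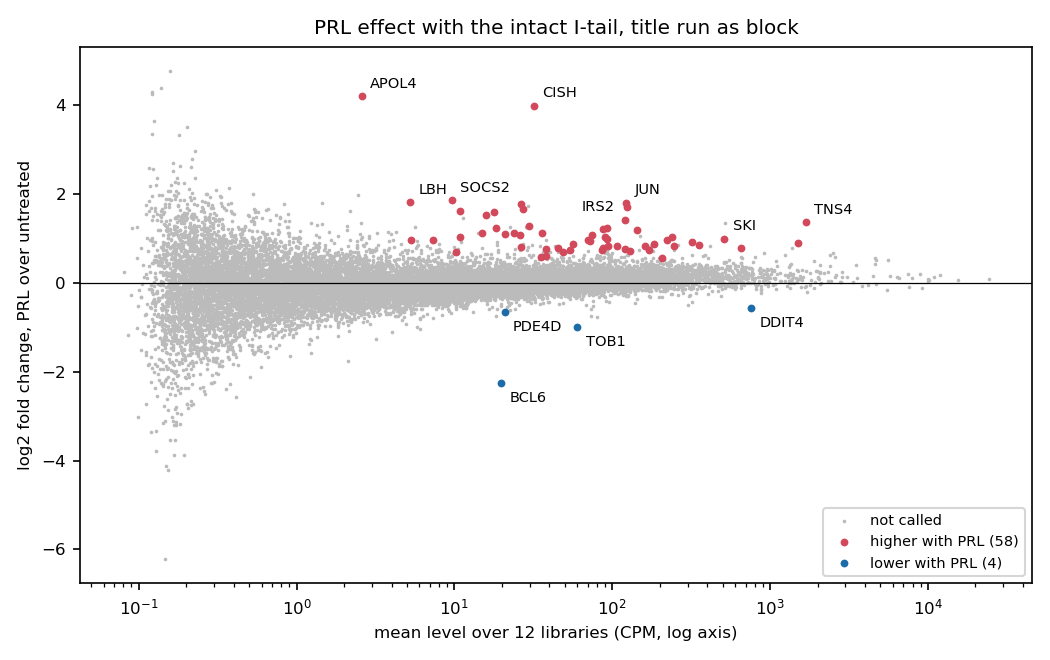
Each point is 1 of 17677 tested genes, with its mean level over 12 libraries in CPM (log axis) against the log2 fold change of PRL over untreated with the intact I-tail. The 58 genes called higher (red) reach up to CISH and APOL4, and the 4 called lower (blue) reach down to BCL6.

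The receptor and its signalling partners were not among the genes called. PRLR was at 3500, 3220 and 3490 CPM in untreated libraries 1 to 3 and at 3890, 3960 and 3100 CPM in PRL libraries 1 to 3. Its groups overlapped, and the log2 fold change was 0.10 ± 0.13 (SE, adjusted p = 0.837). A count per gene merges the long and the intermediate isoform. JAK2 stood at -0.10 (adjusted p = 0.943), STAT5A at 0.01 (0.988) and STAT5B at 0.04 (0.933). Of 22 tested genes of the receptor and JAK-STAT list, 0 were called and 11 were above 0 (50%, against 48.5% of all tested genes).

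CISH and SOCS2, both members of the SOCS family that binds activated cytokine receptors and limits their signalling, rose in every run. CISH was at 3.18, 3.34 and 4.96 CPM in untreated libraries 1 to 3 and at 54.3, 56.4 and 70.7 CPM with PRL. The lowest treated library was far above the highest untreated one, and the fold was 15.9 (log2 3.99 ± 0.15, adjusted p = 1.33e-09). SOCS2 was at 4.61, 2.65 and 4.32 CPM untreated and at 17.7, 11.2 and 12.8 CPM with PRL. The groups did not overlap, and the log2 fold change was 1.86 ± 0.17 (adjusted p = 7.15e-05). Of the 8 SOCS-family genes tested, the other 6 did not pass, from SOCS4 at -0.22 to SOCS1 at 0.27, and SOCS3 stood at 0.09. The share of the family called higher was 25%, against 0.328% of all tested genes. The family's median log2 fold change of 0.10 became -0.04 when libraries were scaled by library size alone.

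The promoter windows of the genes called were read from RefSeq (GRCh38.p14, 250 bases before to 50 after each transcript start) and searched for TTCNNNGAA, which reads the same on both strands. Windows were found for 44 of the 62 genes. The motif stood in 7.66% of all 35116 windows, in 6.28% of the 17066 windows of tested genes, in 3 of 66 windows (4.55%) of 40 genes that rose and in 2 of 13 windows (15.4%) of the 4 genes that fell. Windows with at least 4 matches were 7 of 35116 (0.0199%) and 5 of the 17066 of tested genes (0.0293%), and 1 of CISH and 1 of BCL6 were among them. The cut-off of 4 equals the number of matches in these windows of CISH and BCL6, so their rarity was not a test. The same count was reached by the tested genes ZNF112 (log2 fold change -0.05, adjusted p = 0.971) and ZNF225 (-0.55, 0.637), which did not pass. A match describes the letters in a window and not a bound site.

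The following stretches are shown because CISH had the most significant rise, because SPHK1 was the next gene by size of rise whose window held the motif, and because BCL6 had the largest fall among the 4 called genes that fell. BCL6 was added after its matches had been seen. Each is written 5′ to 3′ on the strand of its gene, with matches to TTCNNNGAA in capitals. CISH lies on the minus strand (chr3:50611775-50612024), where the matches start at -241, -230, -129 and -112 relative to the transcript start. SPHK1 lies on the plus strand (chr17:76383144-76383233) with 1 match starting at 4, just past the start. BCL6 lies on the minus strand (chr3:187745439-187745528), and the stretch holds 3 of its 4 matches, starting at -28, -5 and 11.
CISH: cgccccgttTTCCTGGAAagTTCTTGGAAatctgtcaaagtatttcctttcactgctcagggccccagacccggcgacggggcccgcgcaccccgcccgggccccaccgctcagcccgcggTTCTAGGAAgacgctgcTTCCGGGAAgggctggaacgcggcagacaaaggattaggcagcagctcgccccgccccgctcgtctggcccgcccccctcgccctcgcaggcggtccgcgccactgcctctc
SPHK1: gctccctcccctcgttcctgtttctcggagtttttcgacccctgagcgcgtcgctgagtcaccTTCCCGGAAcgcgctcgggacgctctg
BCL6: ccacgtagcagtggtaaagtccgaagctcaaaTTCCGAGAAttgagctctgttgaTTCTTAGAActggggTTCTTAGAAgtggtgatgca
In CISH the matches lie in 2 pairs upstream of the start, and in BCL6 they lie around it. The AP-1-type motif TGANTCA, also the same on both strands, stood in 7.71% of all windows, 5.62% of those of tested genes, 7 of 66 (10.6%) of genes that rose and 3 of 13 (23.1%) of genes that fell.

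Of 22 tested STAT5 target genes, 3 rose (CISH, SOCS2 and IRS2), 1 fell (BCL6) and 18 did not pass. The shares called were 13.6% higher and 4.55% lower, against 0.328% and 0.0226% of all tested genes. Their median log2 fold change was 0.25 and 17 were above 0, against a median of -0.01 and 48.5% above 0 over all tested genes. The list's median ran from 0.11 to 0.35 over the alternative settings, with 0.11 under the offset for GC content and length and 0.11 without untreated library 1. BCL6, a transcriptional repressor that recognises DNA sites related to those of STAT5, was at 41.3, 26.9 and 34.2 CPM untreated and at 12.5, 3.56 and 6.78 CPM with PRL. Every treated library was below every untreated one, and BCL6 fell 4.77-fold (-2.25 ± 0.23, adjusted p = 1.7e-04). IRS2, an adaptor between insulin or cytokine receptors and PI3K, was at 74.2, 43.9 and 47.4 CPM untreated and at 238, 186 and 121 CPM with PRL. Run 1 had the highest level in both groups, and the log2 fold change was 1.71 ± 0.14 (adjusted p = 2.97e-05). Among members that did not pass, IL4R stood at 0.69 (adjusted p = 0.105), the kinase gene PIM3 at -0.76 (0.135), ID1 at 0.57 (0.143) and the cyclin CCND1 at 0.51 (0.38). Only 5 of 15 milk protein and alveolar genes were expressed enough to be tested, and 0 of them were called. Without the block, SOCS2 (adjusted p = 0.0668), IRS2 (0.0972) and BCL6 (0.153) did not pass. The calls of all 4 genes held when any 1 of the 12 libraries was left out.

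**Figure D2:**
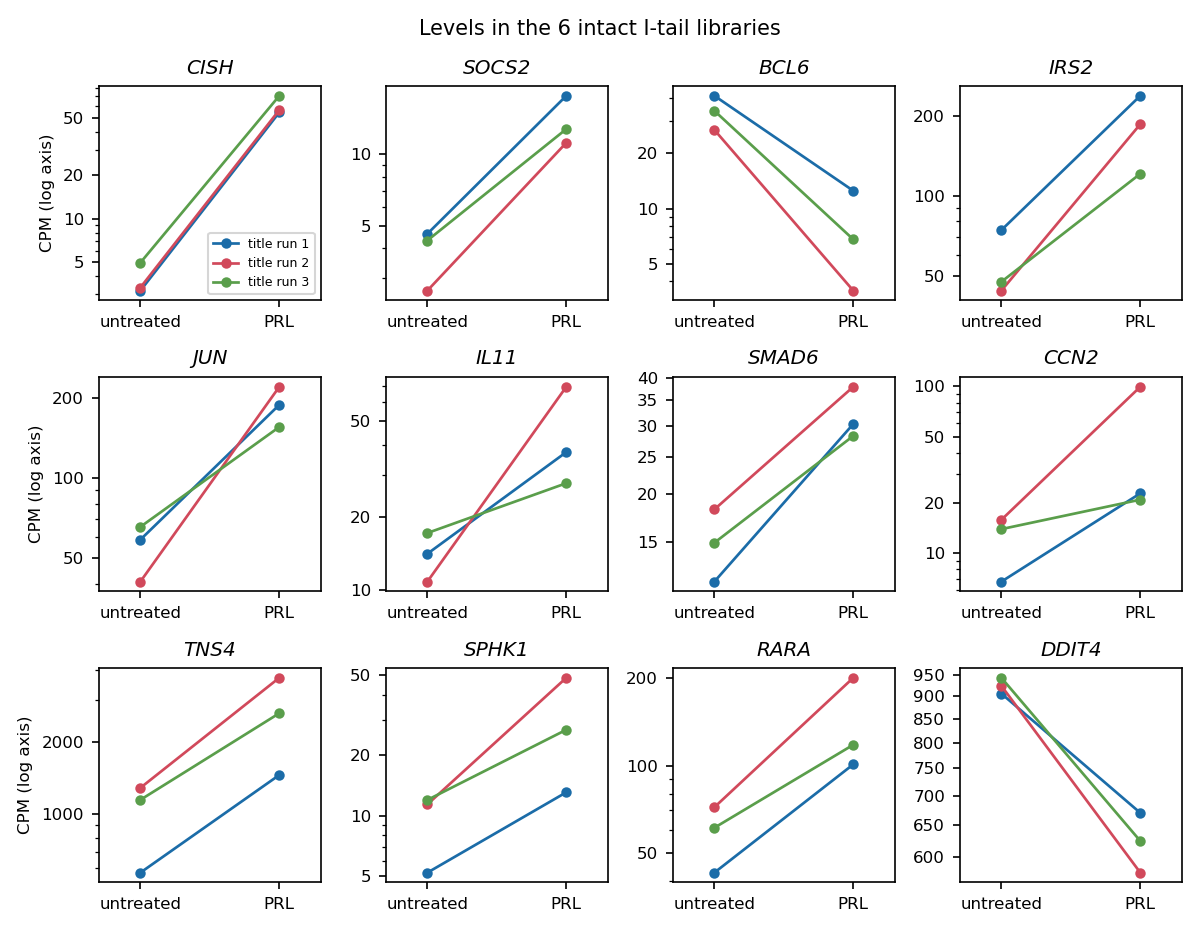
Levels of 12 genes in CPM (log axes that differ between panels) in the 6 intact I-tail libraries, each line joining the untreated and the PRL library of 1 title run. The lines of a panel run in 1 direction in all 12 panels, while the starting level of genes such as TNS4 (572 to 1290 CPM) differs between runs.

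Of 37 immediate early genes, transcripts that respond to stimuli without new protein synthesis, 5 rose and 32 did not pass. The median was 0.30, 24 were above 0 (64.9%) and 17 were higher in every run (45.9%). Over all tested genes these shares were 48.5% and 17.3%, and 0.328% were called higher. JUN, the AP-1 subunit, was at 58.7, 40.8 and 65.6 CPM untreated and at 189, 221 and 156 CPM with PRL. The groups did not overlap (1.80 ± 0.18, adjusted p = 1.2e-04), and run 2 went from the lowest untreated to the highest treated level. JUNB, a second AP-1 subunit, was at 208, 214 and 270 CPM untreated and at 332, 597 and 400 CPM with PRL. Its groups did not overlap either (0.93 ± 0.16, adjusted p = 0.0176). KLF6, a zinc finger transcription factor, rose by 0.80 ± 0.14 from 16.3 to 21.4 CPM untreated to 27.6 to 38.2 CPM (adjusted p = 0.0176). IER3, a survival gene of stimulated cells, rose by 0.76 ± 0.12 from 81.7 to 96.5 CPM to 121 to 191 CPM (adjusted p = 0.00926). NAB2, a corepressor of EGR transcription factors and outside the list, rose by 0.94 ± 0.15 (adjusted p = 0.012). FOSL1 stood at 1.27 ± 0.33 and did not pass (adjusted p = 0.2). The other AP-1 subunits of the list did not pass either. FOS stood at -0.92 (adjusted p = 0.521), FOSB at 0.68 (0.575), FOSL2 at 0.24 (0.583) and JUND at 0.09 (0.871). Of the list, 13 genes were below 0 and 7 were lower in every run (18.9%, against 16.9% of all tested genes). The medians of the list in runs 1, 2 and 3 were 0.20, 0.78 and 0.17, and over the alternative settings its median ran from 0.06 to 0.57. The call of JUN held in all leave-outs of 1 library. JUNB, KLF6 and IER3 lost theirs without untreated library 1, 2 or 3 (adjusted p reached 0.265, 0.235 and 0.142), and NAB2 also without PRL library 2 (up to 0.149). With library-size scaling KLF6 was not called.

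TGF-beta and BMP feedback genes and targets had a median of 0.35, with 4 of 31 called, all higher (12.9%). Of the 31, 26 were above 0 (83.9%) and 20 were higher in every run (64.5%). Over all tested genes these shares were 0.328%, 48.5% and 17.3%. SMAD6 (ENSG00000137834, chromosome 15, 66702228 to 66782848), which blocks BMP receptor signalling, was at 11.8, 18.2 and 14.9 CPM untreated and at 30.4, 38 and 28.3 CPM with PRL. The groups did not overlap (1.12 ± 0.12, adjusted p = 1.7e-04). SKI, a corepressor that binds SMAD complexes, was at 303, 365 and 404 CPM untreated and at 692, 819 and 617 CPM with PRL. It rose in each run without overlap (0.99 ± 0.14, adjusted p = 0.00386). CCN2, a matricellular protein gene, was at 6.72, 15.8 and 13.9 CPM untreated and at 22.8, 99.6 and 20.9 CPM with PRL. PRL library 2 stood far above the other treated libraries, and the log2 fold change was 1.77 ± 0.29 (adjusted p = 0.012). JUNB was the remaining called member and also an immediate early gene, as was CCN2. SKIL, a relative of SKI, stood at 0.73 (adjusted p = 0.0641), the adhesion adaptor NEDD9 at 1.47 (0.0917) and PMEPA1, an inhibitor of SMAD phosphorylation, at 0.79 (0.0995), none of them called. Of 24 ligands, receptors and SMADs of the same pathways, 0 were called, and their median was -0.07. The medians of the feedback list in runs 1, 2 and 3 were 0.38, 0.65 and 0.15, and over the alternative settings its median ran from 0.22 to 0.47. SMAD6 kept its call in all leave-outs of 1 library. That of SKI ended without untreated library 1 or 2 (adjusted p up to 0.0844). That of CCN2 ended without untreated library 1, 2 or 3 or PRL library 1 (up to 0.207), in a fit of the 6 intact libraries alone and with an offset for GC content and length.

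The nuclear receptor genes RARA and VDR rose among 30 tested, and the other 28 did not pass (median -0.03). The share called higher was 6.67%, against 0.328% of all tested genes. RARA, the retinoic acid receptor alpha, was at 42.7, 71.8 and 61 CPM untreated and at 101, 201 and 118 CPM with PRL. All treated libraries were above the untreated ones (1.24 ± 0.13, adjusted p = 1.7e-04). VDR, the vitamin D receptor (ENSG00000111424, chromosome 12, 47841537 to 47943048), was at 39.8, 58.3 and 60.9 CPM untreated and at 110, 150 and 103 CPM with PRL. Its lowest treated library was above its highest untreated one (1.21 ± 0.16, adjusted p = 0.00195). PPARD stood at 0.67 (adjusted p = 0.0719) and NR4A2, an orphan receptor, at -1.04 (0.317). Without the block RARA and VDR did not pass (adjusted p = 0.643 and 0.22). RARA kept its call in all leave-outs of 1 library, and VDR lost it without untreated library 1 (adjusted p = 0.0549).

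Transcriptional corepressors that rose included SKI, described above, TLE3 and BCOR, and the median over the 23 tested corepressors was 0.02. Of the 23, 4 were called, all higher (17.4%, against 0.328% of all tested genes). TLE3, a Groucho-type corepressor, rose by 0.74 ± 0.13 from 112 to 147 CPM to 185 to 245 CPM (adjusted p = 0.0176). BCOR, which binds BCL6, rose by 0.83 ± 0.15 from 67.5 to 79.8 CPM to 94.7 to 164 CPM (adjusted p = 0.0186). NRIP1 stood at 0.82 and did not pass (adjusted p = 0.162). TLE3 lost its call without untreated library 1, 2 or 3 or PRL library 1 or 2 (adjusted p up to 0.24), and BCOR without untreated library 1 or 2 or PRL library 1 or 2 (up to 0.23). With library-size scaling neither TLE3 nor BCOR was called.

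FOXO factors, which AKT keeps out of the nucleus, and the genes they control had a median of -0.23. Of the 32 tested, 6 were above 0 (18.8%) and 12 were lower in every run (37.5%). Over all tested genes these shares were 48.5% and 16.9%. In the FOXO list IRS2, TRIB1 and KLF6 rose, BCL6 fell and 28 did not pass. The shares called were 9.38% higher and 3.12% lower, against 0.328% and 0.0226% of all tested genes. TRIB1, a pseudokinase that serves as a scaffold for protein degradation, was at 17.7, 11.5 and 18.7 CPM untreated and at 38.9, 28.2 and 33.7 CPM with PRL. Treated and untreated levels did not overlap (1.09 ± 0.14, adjusted p = 0.00226), and the call held in all leave-outs of 1 library. CITED2 stood at -0.46 (adjusted p = 0.156), SESN1 at -0.57 (0.371), TXNIP at -0.49 (0.379) and PDK4 at -0.53 (0.428), none of them called. The medians of the list in runs 1, 2 and 3 were -0.11, -0.45 and 0.00, and over the alternative settings its median ran from -0.34 to -0.04. Of 29 insulin, PI3K and AKT components, IRS2 alone was called, and the median was -0.06. The integrated stress and unfolded protein list held 1 gene that rose, TRIB3, and 1 that fell, DDIT4, among 22 (median 0.02).

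Beside BCL6, the genes TOB1, DDIT4 and PDE4D fell. TOB1, an antiproliferative protein of the BTG family (ENSG00000141232, chromosome 17, 50862223 to 50867978), was at 103, 76.1 and 68.7 CPM untreated and at 55.1, 28.3 and 40.9 CPM with PRL. Treated levels were all lower (-1.005 ± 0.16, adjusted p = 0.0104). DDIT4, an inhibitor of mTORC1, was at 906, 924 and 943 CPM untreated and at 670, 576 and 624 CPM with PRL. Its untreated libraries were close together and all above the treated ones (-0.57 ± 0.11, adjusted p = 0.0403). PDE4D, a phosphodiesterase that degrades cyclic AMP, was at 30.4, 16.9 and 23.5 CPM untreated and at 18.8, 11.3 and 14.6 CPM with PRL. The groups overlapped, but the level was lower with PRL in each run by a similar step (-0.66 ± 0.12, adjusted p = 0.0186). None of these 3 genes passed without the block (adjusted p = 1 for each). TOB1 lost its call without untreated library 1, 2 or 3 (adjusted p up to 0.11). PDE4D lost it without any of these 3, PRL library 1 or 3 or deleted PRL library 1 (up to 0.265). DDIT4 kept its call in 1 of 12 leave-outs, that of deleted untreated library 1 (up to 0.473 in the others), and lost it with RLE scaling.

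The genes of a pair of secreted signalling proteins, IL11 and WNT7B, rose. IL11, which signals through gp130 as IL-6 does, was at 14.1, 10.8 and 17.2 CPM untreated and at 37.3, 69.7 and 27.7 CPM with PRL. All treated levels were higher, that of library 2 most (1.66 ± 0.28, adjusted p = 0.0133). IL11 was the 1 called member of 16 tested genes of the IL-6 family list (median 0.12). WNT7B, a WNT ligand, was at 11.3, 19 and 25.5 CPM untreated and at 23.3, 65.5 and 45.3 CPM with PRL. Treated library 1 lay below untreated library 3, so the groups overlapped, while each run rose (1.28 ± 0.22, adjusted p = 0.0184). IL11 lost its call without untreated library 1, 2 or 3 or PRL library 1 (adjusted p up to 0.22), with the 6 intact libraries alone and with the GC and length offset. WNT7B lost it without untreated library 1, 2 or 3 (up to 0.22).

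TNS4, a gene of the tensin family, rose in every run (ENSG00000131746, chromosome 17, 40475828 to 40501597, minus strand, GENCODE 29 on GRCh38). It was at 572, 1290 and 1150 CPM untreated and at 1460, 3710 and 2640 CPM with PRL. The groups did not overlap, yet the untreated levels differed more than 2-fold between runs 1 and 2 (1.36 ± 0.14, adjusted p = 1.7e-04 with the block and 1 without it). The within-run differences of 1.35, 1.52 and 1.20 were close to each other. ENSG00000279806, an entry without a symbol on the same strand, begins 538 bases beyond the 3′ end of TNS4. It was at 50.3, 125 and 97.6 CPM untreated and at 121, 286 and 210 CPM with PRL, in the same order of runs as TNS4 and with overlapping groups (1.19 ± 0.12, adjusted p = 1.2e-04). RARA (ENSG00000131759, 40309192 to 40357643, plus strand) lies 118185 bases from TNS4, and these 3 genes were the only called ones within 200000 bases of each other. All 3 kept their calls in every leave-out of 1 library.

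Rises of more than 2-fold were also measured for SPHK1, CITED4, LBH, SHISAL1 and SOWAHC. SPHK1, the kinase that makes sphingosine-1-phosphate, was at 5.22, 11.4 and 12 CPM untreated and at 13.1, 48.6 and 26.8 CPM with PRL (1.60 ± 0.27, adjusted p = 0.0122). Run 1 was the lowest in both groups, and all treated libraries were above all untreated ones. CITED4, a CBP and p300 coactivator, was at 49.1, 103 and 66.7 CPM untreated and at 114, 358 and 142 CPM with PRL (1.42 ± 0.24, adjusted p = 0.0128). Its treated library 2 stood apart from the other treated libraries, and the groups did not overlap. LBH, a transcriptional cofactor, was at 3.11, 0.883 and 2.5 CPM untreated and at 10.9, 6.93 and 4.44 CPM with PRL (1.82 ± 0.32, adjusted p = 0.0186). SHISAL1 was at 4.24, 8.96 and 12.2 CPM untreated and at 18.5, 28.5 and 20.4 CPM with PRL (1.53 ± 0.22, adjusted p = 0.00537). Neither LBH nor SHISAL1 overlapped between the groups. SOWAHC, an ankyrin-repeat gene, was at 5.29, 4.16 and 5.52 CPM untreated and at 16.2, 14.9 and 14.8 CPM with PRL (1.62 ± 0.14, adjusted p = 6.03e-05). Its treated libraries were nearly equal and far above the untreated ones.

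SOWAHC kept its call in all 12. SHISAL1 lost it without untreated library 1 or 2 (adjusted p up to 0.0968), SPHK1 without untreated library 1, 2 or 3 (up to 0.149) and CITED4 also without PRL library 2 (up to 0.173). LBH lost it without untreated library 1, 2 or 3 or PRL library 1 or 2 (up to 0.182) and with library-size scaling.

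APOL4, an apolipoprotein L gene, had the largest fitted rise among the 62 called genes. It was at 0.139, 0.165 and 0.208 CPM untreated and at 6.74, 0.807 and 3.14 CPM with PRL. The treated libraries spread over a wide range, all above the untreated ones (4.21 ± 0.64, adjusted p = 0.00755). All untreated levels were well below 1 CPM, so the size of this rise rests on few counts. The within-run differences were 5.2, 2.0 and 3.6 in runs 1, 2 and 3. A larger response than that of CISH (3.99 ± 0.15) was therefore not resolved. APOL4 was the 1 called gene of 5 tested in its family. Its call ended with limma-voom and in the leave-outs of untreated library 1, 2 or 3 (adjusted p of at most 0.139). FOXC2, a forkhead transcription factor, was at 25.4, 19 and 29.2 CPM untreated and at 50.7, 58.7 and 47.8 CPM with PRL. Its groups did not overlap (1.12 ± 0.17, adjusted p = 0.00602). Of 16 forkhead genes tested, FOXC2 was the 1 called, with a list median of 0.24. In this list 11 were above 0 (68.8%, against 48.5% of all tested genes). FOXC2 lost its call without untreated library 1 or 2 (up to 0.115).

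ZSWIM4 was at 6.07, 18.1 and 12.7 CPM untreated and at 13.5, 51.3 and 25 CPM with PRL. The groups overlapped while each run rose (1.24 ± 0.22, adjusted p = 0.0186). TRIB3, a pseudokinase that binds AKT, was at 39.7, 93.7 and 65.3 CPM untreated and at 72.9, 234 and 115 CPM with PRL. It too rose in each run with overlapping groups (1.04 ± 0.21, adjusted p = 0.047). SPSB1, a substrate adaptor of ubiquitin ligases, rose by 0.74 ± 0.13 from 31.1 to 46.9 CPM to 58.4 to 68.1 CPM (adjusted p = 0.0209). It was the 1 called member of 28 MAP kinase feedback genes, whose median was 0.05. SPRY4, a feedback inhibitor of that pathway, stood at 0.80 (adjusted p = 0.143). ZSWIM4 lost its call without untreated library 1, 2 or 3 or PRL library 2 (adjusted p up to 0.226), SPSB1 without untreated library 1, 2 or 3 or PRL library 1 or 2 (up to 0.251) or with library size scaling. TRIB3 kept its call in 4 of 12 leave-outs (up to 0.413 without untreated library 1, 2 or 3, PRL library 2 or 3, deleted PRL library 1 or 3 or deleted untreated library 3), and lost it with RLE scaling and with the stricter count filter.

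A further 29 called genes, all of which rose, were outside the rule for naming and are given here after their values were seen. ENSG00000279806, described beside TNS4, was one of them, and NAB2 was another. They belong to no list used here and are ordered by what each is known to do, with no test of any grouping. DNMBP is an exchange factor for Cdc42 (46.2 to 50.2 CPM untreated, 88.8 to 125 CPM with PRL, 1.08 ± 0.12, adjusted p = 3.52e-04). TIAM1 is an exchange factor for Rac (10.2 to 19.3 CPM and 21.8 to 44.2 CPM, 1.10 ± 0.14, adjusted p = 0.00152). The groups overlapped for neither. Also called were CDC42EP1, a Cdc42 effector (0.83), PRAG1, a pseudokinase scaffold (0.82), SH3PXD2B, a podosome adaptor (0.79), SHB, an SH2 adaptor (0.60), and NAV1, a microtubule-associated protein (0.55). DNMBP and TIAM1 kept their calls in all leave-outs of 1 library, and each of the other 5 lost its call without untreated library 1 (adjusted p up to 0.384 over their leave-outs).

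Transcriptional regulators among the 29 were ARID5A (1.03), MSX1 (0.98), TBX3 (0.96), PPRC1 (0.86), ZNF503 (0.79), SAMD11 (0.76) and TFEB, a regulator of lysosomal genes (0.73). At the cell surface or outside it were HEG1 (1.03), the cationic amino acid transporter SLC7A1 (0.98), TNFRSF12A, the receptor for TWEAK (0.97), the histamine receptor HRH1 (0.95), the urokinase gene PLAU (0.89), the phosphate transporter SLC20A1 (0.79) and the secreted METRNL (0.59). The rest were the noncoding LINC01819 (1.12), the methyltransferase NNMT (0.86), the RAF-MEK scaffold KSR1 (0.82), PALM2AKAP2 (0.71), TNFAIP8 (0.69) and ABTB2 (0.68). Their adjusted p-values ran from 0.00372 for TBX3 to 0.047 for TNFAIP8. Each of these 20 genes lost its call without untreated library 1 (adjusted p up to 0.359 over their leave-outs).

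**Figure D3:**
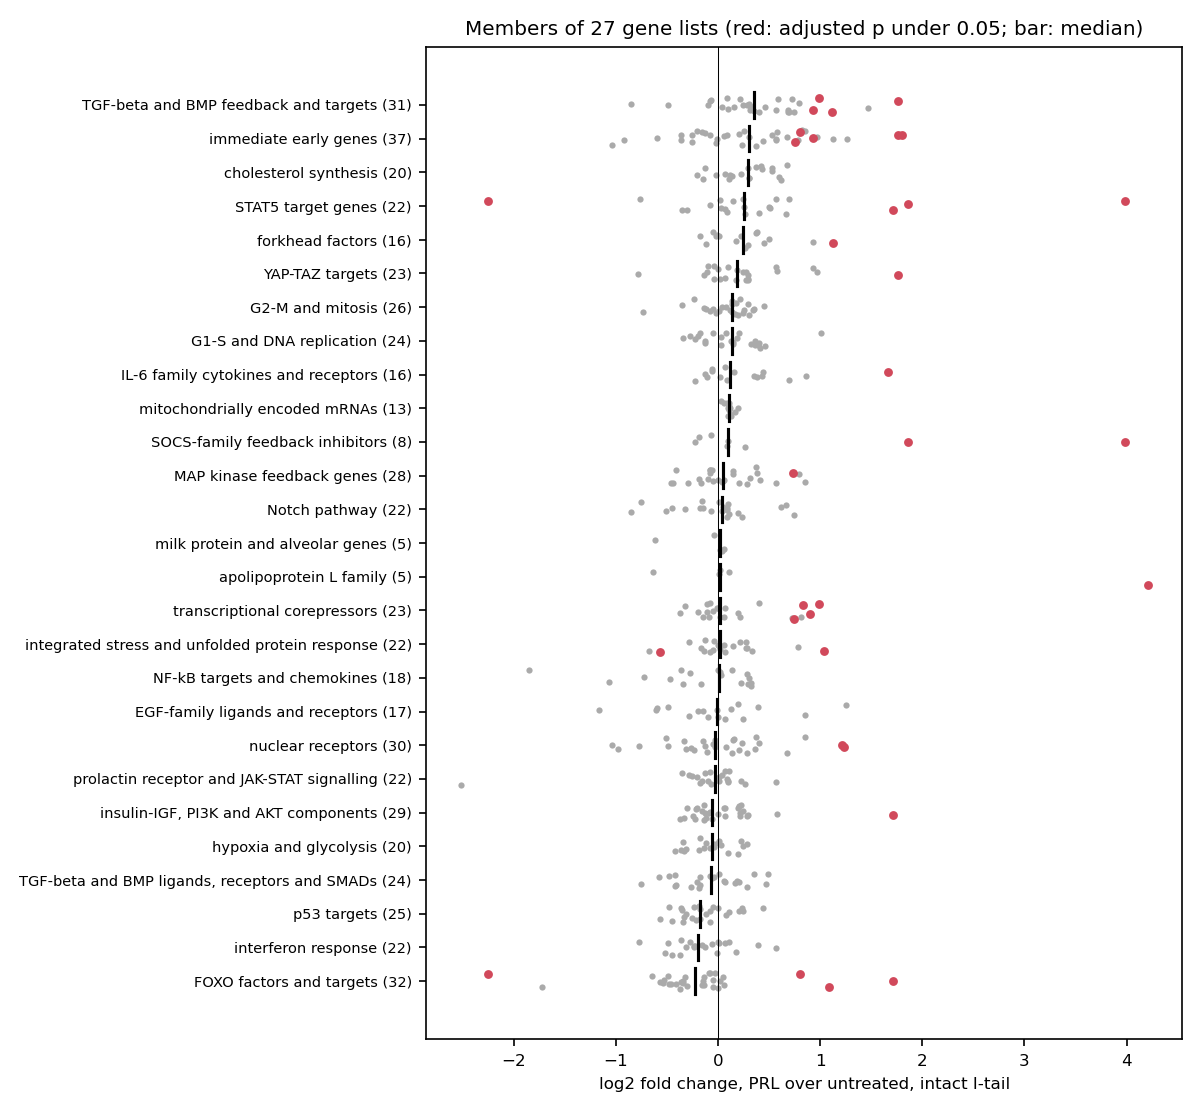
Log2 fold changes of the tested members (points) of 27 gene lists, with called members in red and the list median as a black bar. The number of tested members stands behind each list's name, and the medians of TGF-beta and BMP feedback genes (0.35) and immediate early genes (0.30) are the highest, that of FOXO factors and targets (-0.23) the lowest.

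Other lists held few or no called genes. In 23 YAP-TAZ targets CCN2 alone rose (median 0.19). No member passed among 22 Notch pathway genes (median 0.04, HES1 at -0.76 with adjusted p = 0.0917), 18 NF-kB targets (0.01), 17 EGF-family genes (-0.01, HBEGF at 1.26 with adjusted p = 0.135), 20 hypoxia and glycolysis genes (-0.06) or 13 mitochondrial mRNAs (0.10). The 25 p53 targets had a median of -0.18 with 6 above 0 (24%) and 12 lower in every run (48%). For 22 interferon response genes the median was -0.19 with 6 above 0 (27.3%). Neither list held a called gene. Over all tested genes 48.5% were above 0 and 16.9% were lower in every run. Cell cycle lists differed between runs: the 26 G2-M genes had medians of 0.20, 0.39 and -0.51 in runs 1, 2 and 3, with 0 called and 0.14 over the runs. The 24 G1-S genes had medians of 0.02, 0.47 and -0.14 in the runs and 0.14 over them, also with 0 called. Without PRL library 2 the G1-S median was -0.10 and the G2-M median -0.24. The median of 20 cholesterol synthesis genes, 0.30 with 0 called, was -0.06 without PRL library 2.

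Several of the genes overlap a measured gene on the other strand. No source used here says whether strand was used in the counting. Reads from the stretch that a gene shares with its partner therefore may not have been told apart. None of the partners was called. MAPKAPK3 beside CISH stood at 0.24 ± 0.15 (adjusted p = 0.68), SOCS2-AS1 at 0.89 ± 0.34 (0.521), HOOK2 beside JUNB at 0.15 ± 0.10 (0.703) and STAT6 beside NAB2 at 0.09 ± 0.11 (0.827). RARA-AS1 stood at 0.60 ± 0.34 (0.656), PRPSAP1 beside SPHK1 at 0.02 ± 0.12 (0.972), NOC2L beside SAMD11 at 0.23 ± 0.13 (0.656), MIR23AHG beside ZSWIM4 at 0.34 ± 0.14 (0.56) and TOB1-AS1 at -1.20 ± 0.54 (0.591).

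Libraries of the same title run deviated from their group means together. The correlation of these deviations between the untreated and PRL library was 0.603 in run 1, 0.356 in run 2 and 0.134 in run 3, across genes, which are not independent replicates. Over all 12 libraries it was 0.097 to 0.603 for the 18 pairs from 1 run and -0.447 to 0.301 for the 36 pairs from different runs. The nearest library was one of the same run for 12 of 12. For 36 of the 62 called genes the untreated log2 level varied more between runs than the PRL difference did. The median SDs were 0.355 and 0.319. These genes were called by the fit with the block, which favours a small spread of the within-run difference. The untreated levels were taken without a prior count and the differences with a prior count of 2. The same count over all tested genes was not made.

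**Figure D4:**
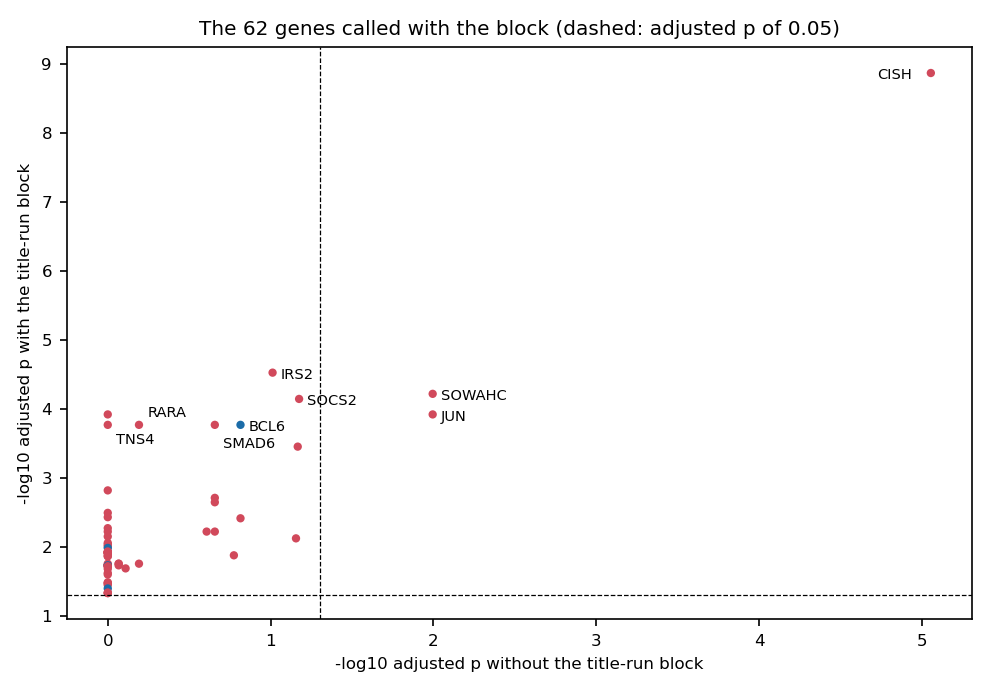
The 62 genes called with the title-run block, by -log10 adjusted p without the block (horizontal) and with it (vertical), red for genes that rose and blue for genes that fell. CISH, JUN and SOWAHC lie past the dashed threshold of 0.05 on both axes, and the other 59 lie past it on the vertical axis alone.

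The response was smallest in run 3. The median log2 difference over the 62 genes, signed by the direction of the call, was 1.06 in run 1, 1.26 in run 2 and 0.69 in run 3. Run 3 had the smallest of the 3 differences for 49 genes and the largest for 0, while run 2 had the largest for 39. In the deleted pair the medians of the same genes were 0.99, 0.81 and 0.90, and run 3 was the smallest for 19. CISH was an example of a gene whose runs differed little (4.08, 4.06 and 3.82), and IL11 of one whose runs differed much (1.40, 2.69 and 0.69).

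Among leave-outs of 1 library, calls were lost most often without an untreated library of the intact pair. Of the 62 calls, 13 held in every leave-out of 1 library: CISH, JUN, SOWAHC, SOCS2, IRS2, BCL6, RARA, SMAD6, TNS4, DNMBP, TIAM1, TRIB1 and ENSG00000279806. The count was 13 without untreated library 1, 17 without untreated library 2, 24 without untreated library 3 and 40 without PRL library 2. All 49 genes that lost a call in some leave-out lost it without untreated library 1, and 36 lost it in each of the 3 leave-outs of an untreated library. None of the 62 genes changed its direction in any of the 26 alternative settings.

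The PRL comparison with the deleted I-tail, which uses other untreated libraries but shares the run terms and the estimate of the spread, called 57 genes (0.322%), 52 higher (0.294%) and 5 lower (0.0283%). The lists shared 43 genes, 69.4% of the intact calls and 75.4% of the deleted calls. All 58 genes that rose with the intact I-tail were above untreated in every run of the deleted pair, where 19.3% of all tested genes were, and all 4 that fell were below, where 20.7% were. The median over the 58 genes was 0.98 with the intact and 0.88 with the deleted I-tail. Deleted-pair log2 fold changes were 3.71 for CISH, 1.74 for SOCS2, 1.61 for IRS2, 1.76 for JUN and -2.21 for BCL6, each called there too. PDE4D (-0.33, adjusted p = 0.57), KLF6 (0.49, 0.338), SLC7A1 (0.58, 0.423) and NAV1 (0.35, 0.402) were among the 19 genes not called with the deleted I-tail.

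The test of the difference between the PRL effects with the intact and the deleted I-tail called 0 genes with edgeR, DESeq2 and limma-voom. At an unadjusted p under 0.05 edgeR gave 345 genes (1.95%), DESeq2 481 and limma-voom 397, and none of the 62 called genes was among the 345. For CISH the difference was 0.27 (95% interval -0.15 to 0.70), for BCL6 -0.04 (-0.71 to 0.63), for JUN 0.04 (-0.48 to 0.55) and for PDE4D -0.32 (-0.67 to 0.03). For APOL4 it was 1.16 with an interval of -0.64 to 2.96. The median half-width of this interval was 0.435 over the 62 genes, so differences smaller than that were not resolved for a typical member.

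**Figure D5:**
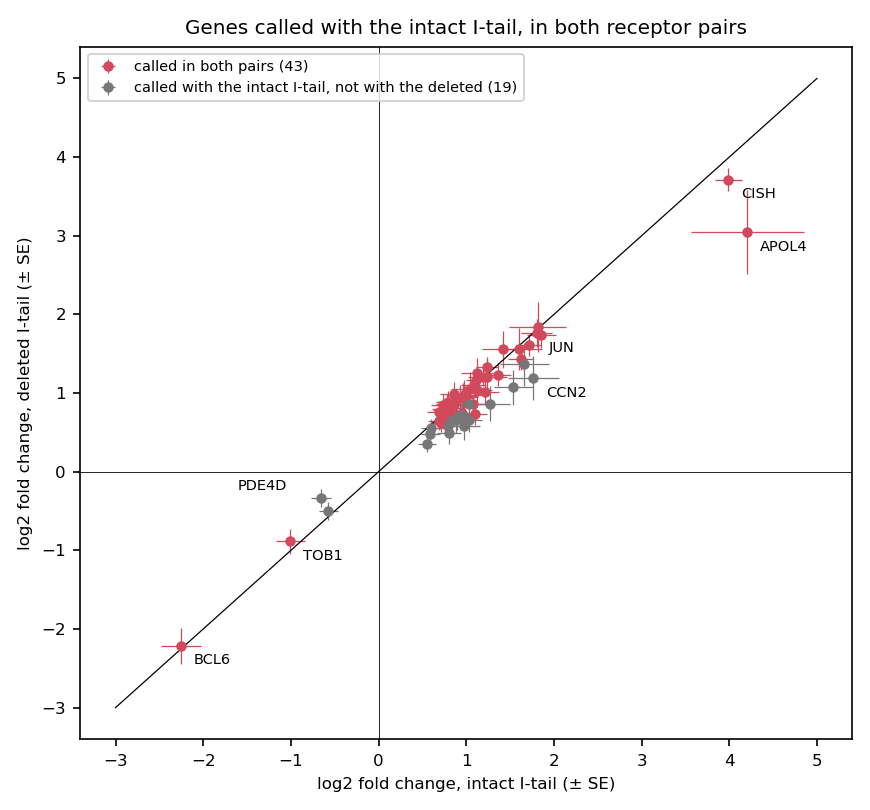
Log2 fold changes (± SE) of the 62 genes with the intact (horizontal) and the deleted I-tail (vertical), with the line of equal change. The 43 genes called in both pairs (red) and the 19 called with the intact I-tail and not the deleted one (grey) all lie in the 2 quadrants of equal sign.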

How the data were processed

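The authors deposited whole-number counts per Ensembl gene for 12 libraries. STAR 2.7.9a, featureCounts of Subread, FastQC and GRCh38 were named per the submitters' processing notes, and annotation release and strand setting are stated in none of the sources. Of 62703 entries, 1 without values was left out. Genes kept by filterByExpr (17677) were TMM-scaled and modelled with edgeR 4.0.16 (R 4.3.3) with 1 mean per group plus title run over 12 libraries (robust quasi-likelihood, 6 residual degrees of freedom), tested by glmQLFTest and adjusted by Benjamini-Hochberg, with calls at 0.05. Standard errors are the fold change over the square root of F. Within-run differences are of log2 CPM with a prior count of 2. The comparison as set out named the title run as the block. In the intact pair, deviations from the group means correlated above 0.1 in each run, while pairs of libraries from different runs reached 0.301.

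The members, gene lists and rules were chosen with earlier results of these data known. Named were up to 15 rises and 15 falls by size among called genes with at least 1 CPM and 1 direction in all runs, up to 4 called members per list by smallest p, PRLR, JAK2, STAT5A, STAT5B and, for a contrast with fewer than 5 calls, the 5 smallest p. Counts of libraries of 1 group differed beyond sampling noise. The method was tested on simulated data. Alternatives were no block, the 6 intact libraries alone, RLE and library-size scaling, other count filters, DESeq2 1.42.0, limma-voom (3.58.1), non-robust dispersions, a GC and length offset, a fold minimum and leave-outs of libraries and runs. Coordinates are from GENCODE 29. Some items are not reported here.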

Additional observations from a re-analysis of the deposited data

Results flagged for a closer look

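In 4 genes, picked for the smallest p of the difference between the PRL effects, every run of the intact pair moved one way and every run of the deleted pair the other. Picking genes in this way favours opposite movement, and the share over all tested genes was not counted. The difference (intact minus deleted, log2) was 6.25 for ENSG00000223461, -1.99 for AURKC, -4.23 for ADH1B and -0.74 for PFDN4. It was tested by edgeR's quasi-likelihood interaction, and none passed (adjusted p = 1 for each, unadjusted 0.00163, 0.00206, 0.00197 and 0.000855). ENSG00000223461 had a mean of 0.138 CPM, with 0, 0 and 0.0174 CPM in intact untreated libraries 1 to 3, and overlaps DGCR2 on the other strand. ADH1B had a mean of 0.415 CPM, with intact PRL library 2 at 0, and AURKC one of 0.951 CPM. The size of these 3 differences therefore rests on few counts. PFDN4 had a mean of 15.15 CPM. PMS2P3, a pseudogene with near-identical copies whose counts are uncertain, was the remaining gene among the 5 smallest p.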

How the results depend on the processing

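Counts of genes called for the PRL effect are given as intact and deleted I-tail. Against 62 and 57, they were 3 and 3 without the replicate block, 141 (60 of the 62 among them) for the 6 intact libraries alone, 287 and 215 without a count filter, 180 and 140 with DESeq2, 80 and 94 with the GC and length offset and the replicate block (55 of the 62 kept), and 29 and 25 where calls also needed a log2 change of 1 or more. Leaving out title run 1, 2 or 3 gave 9, 106 and 16 with the intact and 10, 228 and 6 with the deleted I-tail. Leaving out 1 library gave 13 to 77 and 12 to 116. RLE scaling, library size alone, the stricter filter, limma-voom and non-robust dispersions gave 46 to 69 with the intact I-tail. Library size alone ended 18 of the 62 calls and moved the median of all tested genes from -0.01 to -0.14. The difference between the PRL effects called 0 genes in each of these settings that holds both receptor pairs. It has no value for the 6 intact libraries alone. Over the settings 3 genes, CISH, JUN and SOWAHC, kept their call throughout, 55 kept it in at least 13 of 26, and 0 changed direction. The cause of these changes was not tested. Leave-outs also fit fewer samples, and their counts lay both below and above those of the main fit. The median half-width of a 95% interval, which carries counting error and the spread between libraries together, was 0.438 for the intact effect and 0.619 for the difference. List medians kept their sign in all settings for STAT5 targets, immediate early genes, TGF-beta and BMP feedback genes, TGF-beta and BMP ligands, forkhead factors, YAP-TAZ targets, FOXO factors and targets and p53 targets, and changed sign or reached 0 in at least 1 setting for the other 19 lists.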
